A study of Homo sapiens with 6 samples.

Results

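The keratin genes are the rows of the count table marked protein-coding whose symbol is KRT, a number and at most 1 letter, which leaves out the keratin-associated KRTAP genes and the antisense rows. They are 42 of 22941 rows, 20 of type I and 22 of type II. RNA came from HSC-3, an established cell line of a human oral squamous cell carcinoma, cultured in a Rotary Cell Culture System that simulates microgravity (3 libraries) or under normal gravity (3 libraries). Both groups were kept in DMEM with fetal bovine serum. The titles call the libraries biological replicates and say no more on how separate the cultures were. The p-values therefore set a group difference against the spread of these libraries only, and may not hold for new cultures. All cells are of 1 tumour line, and the sources used here do not give the time in culture.

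Keratins are the intermediate filament proteins of epithelial cells. A type I chain pairs with a type II chain, and the pairs build filaments that run from the nucleus to desmosomes and hemidesmosomes. Which pairs a cell makes depends on its layer and state: KRT5 and KRT14 in the basal layer of stratified epithelia, KRT1 and KRT10 or KRT4 and KRT13 in the layers above, KRT6, KRT16 and KRT17 in wounded or activated epithelium, KRT8 and KRT18 in simple epithelia, and a further set in hair. In oral squamous epithelium the basal pair and the mucosal pair KRT4 and KRT13 are the usual markers of layer.

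Total counts ran between 34264008 and 36317678 in the simulated microgravity libraries and between 37276166 and 38861233 in the normal gravity libraries. Replicate 3 of normal gravity stood apart from replicates 1 and 2 on the second principal component of all genes, at -55.9 against 17.55 and 36.3. Of the 21 keratins at 5 CPM or more on average in either group, it had the highest normal gravity value for 14 and the lowest for 5. All 8 epithelial markers outside the keratins were detected (EPCAM, CDH1, TP63, SFN, DSP, PKP3, DSG3 and LAMB3), with a summed level of 3960 to 4340 CPM in simulated microgravity and 3730 to 5350 CPM in normal gravity. The fibroblast list summed to 18.3 to 19.0 CPM in simulated microgravity and 12.7 to 30.7 CPM in normal gravity, with COL1A2, COL3A1, DCN, LUM and PDGFRA under 1 CPM in every library. The immune list summed to 265 to 287 CPM in simulated microgravity and 110 to 136 CPM in normal gravity. Its leading gene was CD68, a lysosomal protein gene, at 188 and 93.6 CPM, and the rest lay mostly in CD14 and CD79A. By the test described below, 3 of its 4 tested genes were called higher and 0 lower. Over all genes these shares were 28.2% and 29.3%. PTPRC, CD3E and LYZ were under 1 CPM in every library, and the part of this list in the keratin results was not tested. Endothelial, melanocyte, Merkel cell and muscle lists reached at most 5.81 CPM in simulated microgravity and 5.76 CPM in normal gravity.

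Levels are CPM, counts divided by a library size scaled with TMM factors, and log2 fold changes (log2 FC) are simulated microgravity minus normal gravity with their standard error (SE). A gene was called where the quasi-likelihood test of edgeR, with Benjamini-Hochberg adjustment over all 14736 genes tested, gave an adjusted p under 0.05. A CPM depends on all other transcripts in its library, and in bulk RNA fewer cells of a kind and less RNA per cell cannot be told apart.

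Promoters of hair keratin genes on chromosome 17 are printed because 4 of these genes were called higher, a neighbour was called lower and a gene with a near copy of a promoter had few counts. RefSeq promoter windows (GRCh38.p14, 250 bases before to 50 bases after the start) were matched for 23 of the 42 keratins by symbol. The sequences below are printed 5′ to 3′ on the strand of the gene, which is the minus strand for all 7, and capitals mark the letters TATAAA where they occur. KRT37 (chr17:41424536-41424835), KRT34 (chr17:41382257-41382556), KRT33B (chr17:41369764-41370063) and KRT31 (chr17:41397559-41397858) rose, KRT38 (chr17:41440934-41441233) was below the filter on low counts, and KRT32 (chr17:41467337-41467636) and the basal keratin KRT5 (chr12:52520345-52520644) fell.
KRT37: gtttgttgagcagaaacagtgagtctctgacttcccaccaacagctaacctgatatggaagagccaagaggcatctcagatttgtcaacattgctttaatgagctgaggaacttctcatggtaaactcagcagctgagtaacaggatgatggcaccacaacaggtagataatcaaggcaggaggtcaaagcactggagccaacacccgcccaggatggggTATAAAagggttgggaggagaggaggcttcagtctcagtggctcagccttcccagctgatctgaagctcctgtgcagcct
KRT38: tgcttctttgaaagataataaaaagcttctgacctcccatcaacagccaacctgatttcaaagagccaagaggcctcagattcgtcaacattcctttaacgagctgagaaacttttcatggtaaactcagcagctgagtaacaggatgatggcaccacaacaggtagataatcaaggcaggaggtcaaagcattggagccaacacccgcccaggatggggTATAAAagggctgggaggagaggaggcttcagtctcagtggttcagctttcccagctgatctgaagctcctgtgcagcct
KRT34: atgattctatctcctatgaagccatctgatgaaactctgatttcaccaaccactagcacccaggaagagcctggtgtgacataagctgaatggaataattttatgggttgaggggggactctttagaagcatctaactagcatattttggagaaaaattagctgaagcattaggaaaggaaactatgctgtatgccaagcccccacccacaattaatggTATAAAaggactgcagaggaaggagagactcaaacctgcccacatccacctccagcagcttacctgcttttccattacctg
KRT33B: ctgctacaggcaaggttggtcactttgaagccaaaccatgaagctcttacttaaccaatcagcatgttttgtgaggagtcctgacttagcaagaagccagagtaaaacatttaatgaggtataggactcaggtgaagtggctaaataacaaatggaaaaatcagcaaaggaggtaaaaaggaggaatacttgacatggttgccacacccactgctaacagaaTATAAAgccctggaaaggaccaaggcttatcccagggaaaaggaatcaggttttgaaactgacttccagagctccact
KRT31: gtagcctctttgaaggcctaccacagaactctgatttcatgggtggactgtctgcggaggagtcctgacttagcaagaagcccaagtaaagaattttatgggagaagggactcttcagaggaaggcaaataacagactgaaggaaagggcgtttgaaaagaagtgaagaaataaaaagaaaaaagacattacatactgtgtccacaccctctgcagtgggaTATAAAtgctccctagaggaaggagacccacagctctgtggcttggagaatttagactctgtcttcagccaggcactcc
KRT32: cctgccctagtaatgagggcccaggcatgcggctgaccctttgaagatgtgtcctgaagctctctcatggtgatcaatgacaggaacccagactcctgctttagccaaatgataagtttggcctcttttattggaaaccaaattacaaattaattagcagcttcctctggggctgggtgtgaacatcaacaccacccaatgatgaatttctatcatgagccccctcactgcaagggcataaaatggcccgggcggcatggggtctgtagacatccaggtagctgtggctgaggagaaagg
KRT5: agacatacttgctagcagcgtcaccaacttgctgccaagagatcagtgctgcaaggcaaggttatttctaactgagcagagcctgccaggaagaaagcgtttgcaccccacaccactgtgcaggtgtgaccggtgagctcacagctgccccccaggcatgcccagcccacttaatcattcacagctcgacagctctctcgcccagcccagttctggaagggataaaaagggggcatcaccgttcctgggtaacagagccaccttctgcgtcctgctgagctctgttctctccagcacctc

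The windows of KRT37 and KRT38 carried the same base at 236 of 300 positions, with a longest identical run of 77 bases. KRT37 had 641 counts over the simulated microgravity libraries and 3 over those of normal gravity. KRT38 had 14 and 2, and was not tested. KRT33B and KRT31 shared a run of 26 bases found in no other of 35116 windows. TATAAA, searched on the strand of the gene, began 28 to 31 bases before the start in the windows of KRT37, KRT38, KRT34, KRT33B and KRT31. Its letters were not in the windows of KRT32 and KRT5, and variants that differ by a letter were not searched. The same letters began 29 bases before the start in the windows of KRT10 and KRT33A, which were not called. They began 29 and 30 bases before it in KRT76 and KRT3, and 53 and 85 bases before it in KRT73 and KRT39, all below the filter. TATAAA was absent from the windows of KRT4, KRT75, KRT8 and KRT9, which were called higher, and from that of KRT74, which was called lower. The windows of KRT8 and KRT34 lie inside the RefSeq spans of these genes, so they are not at the outermost start. TATAAA stood in 11 of the 23 keratin windows (47.8%) and in 7.33% of all windows. The letters TGANTCA, the core of the AP-1 site, were in none of the 23 on either strand and in 7.71% of all windows; GCCNNNGGC, the core of the AP-2 site, was in 5 of the 23 (21.7%) and in 23.2% of all. On both strands as well, the TEAD letters GGAATG were in 3 of the 23 (13%) against 14% of all, and the GC box letters GGGCGG in 6 (26.1%) against 45.0%. These matches describe letters and not binding.

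Of the 42 keratins 31 passed the filter on low counts. Among these, 20 were called higher and 4 lower in simulated microgravity, with 7 not called. Over all tested genes 28.2% were called higher and 29.3% lower, so the keratin share of 64.5% higher is above that background and its 12.9% lower is below it. Type I keratins had 10 higher, 2 lower and 4 not called of 16 tested. Type II keratins had 10 higher, 2 lower and 3 not called of 15. The median log2 FC of the tested keratins was 1.77, beside -0.0124 for all genes. The filter shapes these counts: 9 of the 31 reached it in all libraries of simulated microgravity but not of normal gravity, and 8 of those 9 were called higher. Of the 19 keratins that reached it in all 6 libraries, 12 were called higher, 3 lower and 4 not called. In 20 keratins every simulated microgravity library lay above every normal gravity library, and in 4 every one lay below; for all tested genes these shares were 33.0% and 33.3%.

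**Figure D1:**
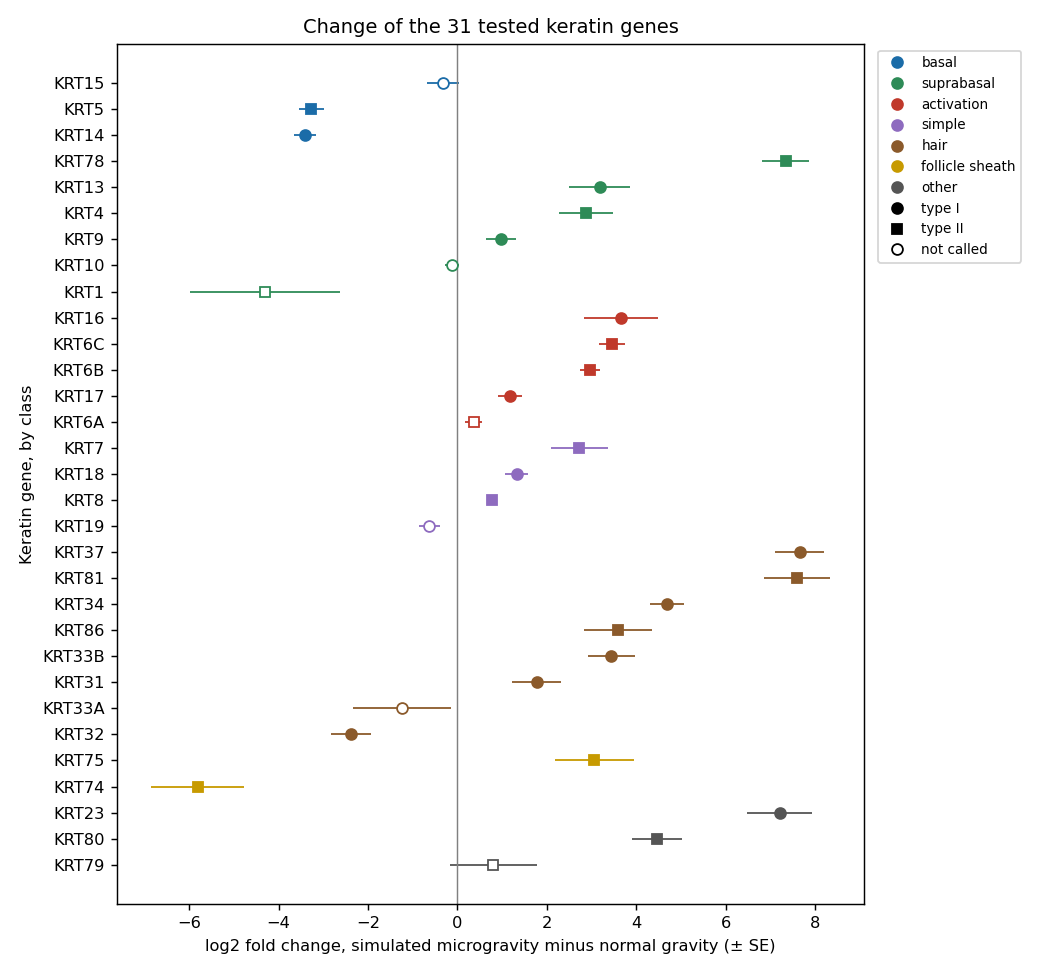
Fitted log2 fold change, simulated microgravity minus normal gravity, with its standard error for the 31 tested keratins, ordered by class (circles type I, squares type II, open symbols not called). KRT5 and KRT14 stand far to the left of 0 while most activation, hair and suprabasal keratins stand to the right; KRT37, KRT81 and KRT74 have 3 counts or fewer in a group, so their fitted values are no measure of size.

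The basal pair fell together, and the third basal keratin did not follow. KRT5, the type II chain of basal cells (chr12:52514575-52520394), had 1126, 1178 and 729 CPM in simulated microgravity, against 9402, 7206 and 12530 CPM in normal gravity (log2 FC -3.26, SE 0.27, adjusted p = 3.76e-05). KRT14, its type I partner (chr17:41582279-41586895), had 297, 275 and 304 CPM in simulated microgravity, against 2985, 2165 and 4169 CPM in normal gravity (log2 FC -3.41, SE 0.24, adjusted p = 1.85e-05). For both genes the groups were far apart. KRT15, a type I keratin of basal and stem-like cells, had 3509, 3594 and 3695 CPM in simulated microgravity and 3944, 2371 and 7198 CPM in normal gravity. The simulated microgravity values of KRT15 lay inside the normal gravity range, and it was not called (log2 FC -0.32, SE 0.35, adjusted p = 0.46). Its value was 0.20 without normal gravity replicate 3, the opposite sign, also not called.

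Ordered per kilobase of transcript, the leading keratin was a different one in each group. In simulated microgravity KRT15 led with 2102 CPM per kilobase on average, followed by KRT17 with 934, KRT6A with 583, KRT19 with 525, KRT5 with 452 and KRT16 with 434. KRT15 and KRT17 stood apart from each other and from the genes below, while neighbours in the order from KRT6A to KRT8 overlapped between libraries. In normal gravity KRT5 led with 4340 CPM per kilobase, followed by KRT15 with 2631, KRT14 with 1899, KRT19 with 812, KRT6A with 454 and KRT17 with 411. KRT5 and KRT15 overlapped there, as did KRT15 and KRT14, and KRT14 stood apart from KRT19.

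**Figure D2:**
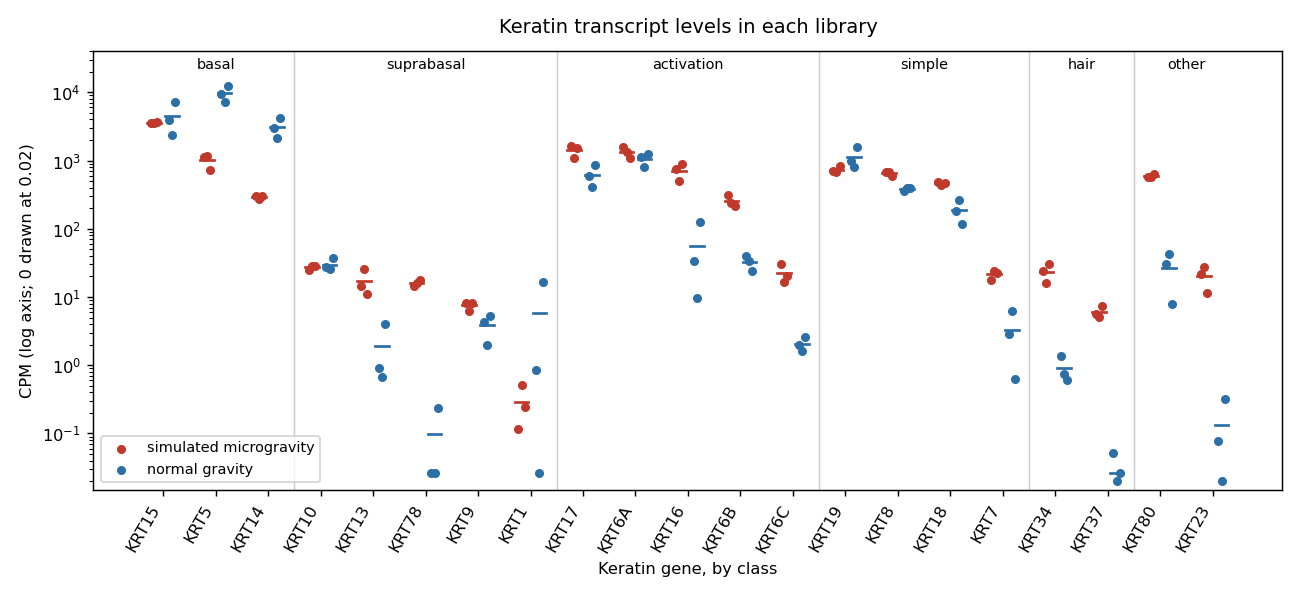
CPM on a log axis of the 21 keratins at 5 CPM or more on average in either group, with 1 point per library and a bar at the group mean, simulated microgravity left of normal gravity. KRT5 and KRT14 sit about 10 times lower in simulated microgravity, whereas KRT80, KRT78, KRT23, KRT37 and KRT34 have wide gaps in the other direction.

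Keratins of activated epithelium rose, except KRT6A. Of these 5 genes 4 were called higher and none lower, beside 28.2% higher and 29.3% lower over all genes. KRT16, a type I keratin that appears at wound edges (chr17:41609778-41612767), had 750, 508 and 883 CPM in simulated microgravity, against 34.1, 9.69 and 125 CPM in normal gravity (log2 FC 3.66, SE 0.82, adjusted p = 0.0063). Its normal gravity values spread over more than 10 times, yet the groups did not overlap. Without normal gravity replicate 3 the change was 5.04, and with no low-count filter the call was lost (adjusted p = 0.0665). KRT17, found in activated keratinocytes and in many squamous carcinomas, had 1636, 1095 and 1518 CPM in simulated microgravity, against 593, 416 and 861 CPM in normal gravity (log2 FC 1.18, SE 0.27, adjusted p = 0.00618).

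The 3 KRT6 genes, type II partners of KRT16 and KRT17, stand side by side on chromosome 12. KRT6B had 311, 238 and 216 CPM in simulated microgravity, against 40.1, 33.4 and 23.7 CPM in normal gravity (log2 FC 2.98, SE 0.22, adjusted p = 2.74e-05). KRT6C had 30.8, 16.7 and 20.3 CPM in simulated microgravity, against 1.99, 1.60 and 2.60 CPM in normal gravity (log2 FC 3.45, SE 0.30, adjusted p = 4.03e-05). KRT6A, the most abundant of them, had 1584, 1347 and 1106 CPM in simulated microgravity and 1111, 799 and 1236 CPM in normal gravity, with overlapping groups, and was not called (log2 FC 0.36, SE 0.20, adjusted p = 0.149). Without normal gravity replicate 3 KRT6A was called (log2 FC 0.51, adjusted p = 0.0313). These are near copies: 9.25%, 12.8% and 16.5% of the 150-base windows of the KRT6A, KRT6B and KRT6C transcripts occur unchanged in another gene, so reads may be split uncertainly among them. Their summed counts were 67048, 56511 and 48858 in simulated microgravity and 44058, 31322 and 47518 in normal gravity (log2 FC 0.58, SE 0.20, adjusted p = 0.0309).

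Of 6 suprabasal keratins tested, 4 were called higher and none lower, beside 28.2% higher and 29.3% lower over all genes. Of the 4 called higher, KRT4 and KRT78 reached the filter in all libraries of simulated microgravity only, so the count is a description. KRT13, the type I keratin of the upper layers of mucosa, had 14.5, 25.8 and 10.97 CPM in simulated microgravity, against 0.916, 0.665 and 4.06 CPM in normal gravity (log2 FC 3.18, SE 0.68, adjusted p = 0.00503). KRT4, its type II partner, had 3.25, 4.34 and 2.58 CPM in simulated microgravity, against 0.314, 0.133 and 0.930 CPM in normal gravity (log2 FC 2.88, SE 0.61, adjusted p = 0.00404). Without normal gravity replicate 3, KRT13 changed by 4.44 and KRT4 by 3.91. For both partners of the mucosal pair the groups did not overlap.

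KRT78, a type II keratin of upper epithelial layers, had 14.7, 16.1 and 18.0 CPM in simulated microgravity, against 0.0262, 0.0266 and 0.239 CPM in normal gravity (log2 FC 7.34, SE 0.53, adjusted p = 1.99e-05). Its normal gravity level rests on 11 counts over the group, 9 of them in replicate 3, and without that library the fitted change was 9.10. The epidermal pair gave another picture. KRT10 had 24.7, 28.6 and 28.5 CPM in simulated microgravity and 27.2, 25.6 and 36.7 CPM in normal gravity, and was not called (log2 FC -0.13, SE 0.16, adjusted p = 0.522; 0.06 without normal gravity replicate 3). Its partner KRT1 had 0.115, 0.510 and 0.247 CPM in simulated microgravity and 0.863, 0.0266 and 16.5 CPM in normal gravity. A single library, normal gravity replicate 3, held nearly all KRT1 counts, and KRT1 was not called (log2 FC -4.30, SE 1.68, adjusted p = 0.0585). Its change was -0.59 without that library (adjusted p = 0.63), and it was called at -4.81 without normal gravity replicate 1 (adjusted p = 0.04997) and at -4.87 without replicate 2 (adjusted p = 0.0085). KRT9, the type I keratin of palm and sole, had 8.07, 6.32 and 8.14 CPM in simulated microgravity, against 4.29, 2.00 and 5.18 CPM in normal gravity (log2 FC 0.97, SE 0.34, adjusted p = 0.0363). That call ended without any single library other than normal gravity replicate 3, at adjusted p-values between 0.0533 and 0.106.

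The antisense gene KRT10-AS1 overlaps KRT10 and had 206, 249 and 180 counts in simulated microgravity and 366, 285 and 416 in normal gravity. The sources used here give no strand setting for the counting, so reads of KRT10 and of its antisense partner cannot be told apart.

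Of 4 simple epithelial keratins tested, 3 were called higher and KRT19 was not called, beside 28.2% higher and 29.3% lower over all genes. KRT8 had 688, 681 and 601 CPM in simulated microgravity, against 361, 401 and 395 CPM in normal gravity (log2 FC 0.77, SE 0.11, adjusted p = 6.18e-04). KRT18, its type I partner, had 487, 444 and 470 CPM in simulated microgravity, against 183, 260 and 118 CPM in normal gravity (log2 FC 1.32, SE 0.26, adjusted p = 0.00287). Groups did not overlap for either gene of the pair. The RefSeq spans of KRT8 and KRT18 overlap on chromosome 12, and without a strand setting reads in that stretch cannot be assigned with certainty. KRT7, a type II keratin of glandular and ductal cells, had 17.8, 24.0 and 22.4 CPM in simulated microgravity, against 2.83, 6.25 and 0.638 CPM in normal gravity (log2 FC 2.72, SE 0.64, adjusted p = 0.00757). The KRT7 change was 3.64 without normal gravity replicate 2, and its call was lost with no low-count filter (adjusted p = 0.0674). KRT19, a small type I keratin of simple and basal cells, had 702, 669 and 819 CPM in simulated microgravity and 997, 802 and 1585 CPM in normal gravity. Its groups overlapped and it missed the threshold (log2 FC -0.63, SE 0.24, adjusted p = 0.0508; 0.0109 to 0.145 over the alternatives).

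KRT80 and KRT23 had among the widest gaps between the groups. KRT80, a type II keratin that lies at desmosomes in differentiating epithelial cells (chr12:52168996-52192014), had 576, 566 and 639 CPM in simulated microgravity, against 29.9, 42.8 and 8.0 CPM in normal gravity (log2 FC 4.46, SE 0.55, adjusted p = 3.55e-04). It reached 154 CPM per kilobase in simulated microgravity, close below KRT14 with 179. KRT23, a type I keratin, had 21.6, 27.2 and 11.3 CPM in simulated microgravity, against 0.0785, 0 and 0.319 CPM in normal gravity (log2 FC 7.21, SE 0.72, adjusted p = 1.30e-04). The normal gravity libraries held 3, 0 and 12 counts of KRT23, and without replicate 3 the fitted change was 8.88. KRT79, the last gene of this class, had 0.546, 0.595 and 0.715 CPM in simulated microgravity and 0.0785, 0.0266 and 0.956 CPM in normal gravity and was not called (adjusted p = 0.508). It was called without normal gravity replicate 3 (log2 FC 3.48, adjusted p = 0.00214).

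Hair keratins, the sulphur-rich chains of the hair shaft, were low in both groups. Of 14 rows 8 were tested, and 6 were called higher, 1 lower and 1 not called, beside 28.2% higher and 29.3% lower over all genes. Of the 6 called higher, 4 (KRT31, KRT37, KRT81 and KRT86) reached the filter in all libraries of simulated microgravity only, so the count is a description; the hair keratins that reached it in all 6 libraries were KRT33B and KRT34, called higher, and KRT32, called lower. KRT34, a type I keratin of the hair cortex, had 24.0, 16.1 and 30.6 CPM in simulated microgravity, against 1.39, 0.745 and 0.611 CPM in normal gravity (log2 FC 4.68, SE 0.37, adjusted p = 3.22e-05). Among hair keratins it was the most abundant in simulated microgravity, and the groups lay far apart. KRT37, a type I hair keratin, had 193, 181 and 267 counts in simulated microgravity, against 2, 0 and 1 in normal gravity, a ratio of 228 (95% counting interval 77.5 to 1110, adjusted p = 1.75e-05). KRT33B had 6.29, 2.13 and 5.75 CPM in simulated microgravity, against 0.340, 0.293 and 0.664 CPM in normal gravity (log2 FC 3.44, SE 0.52, adjusted p = 7.08e-04).

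The other tested type I hair keratins gave 1 call in each direction. KRT32, a keratin of the hair cuticle, fell to 0.373, 0.567 and 0.385 CPM in simulated microgravity, against 1.57, 1.84 and 3.51 CPM in normal gravity (log2 FC -2.37, SE 0.45, adjusted p = 0.00214). KRT31 had 27, 15 and 46 counts in simulated microgravity, against 10, 10 and 7 in normal gravity (adjusted p = 0.0222). Its call was lost without normal gravity replicate 1 or simulated microgravity replicate 1 or 3, at adjusted p-values of 0.0548, 0.0533 and 0.0923. KRT33A, a near relative of KRT33B, was not called, with 0, 10 and 9 counts in simulated microgravity and 2, 13 and 33 in normal gravity (adjusted p = 0.358).

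The type II hair keratins that passed the filter were KRT81 and KRT86, whose genes overlap on chromosome 12. KRT81 had 66, 73 and 113 counts in simulated microgravity, against 0, 1 and 0 in normal gravity, a ratio of 268 (95% counting interval 47.7 to 10600, adjusted p = 7.21e-05). KRT86 had 84, 63 and 71 counts in simulated microgravity, against 8, 11 and 0 in normal gravity (log2 FC 3.59, SE 0.75, adjusted p = 0.00372; 4.26 without normal gravity replicate 2). Of the 150-base windows of KRT81 25.6% occur unchanged in KRT86, so the split of reads between them is uncertain. Summed, they had 150, 136 and 184 counts in simulated microgravity and 8, 12 and 0 in normal gravity (log2 FC 4.62, SE 0.70, adjusted p = 7.40e-04).

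The tested keratins of the follicle sheaths were called in opposite directions at very low levels. Over all genes 28.2% were called higher and 29.3% lower. KRT75 reached the filter in all libraries of simulated microgravity only, and KRT74 in all libraries of normal gravity only. The filter thus shapes these directions, and they are a description. KRT75, of the companion layer around the hair, had 59, 40 and 12 counts in simulated microgravity, against 11, 1 and 2 in normal gravity (log2 FC 3.06, SE 0.89, adjusted p = 0.0172). Its fold is loosely fixed: the change was 4.61 without normal gravity replicate 1, and the call was lost without simulated microgravity replicate 1 (2.54, adjusted p = 0.0699). KRT74, of the inner root sheath, had 0, 1 and 0 counts in simulated microgravity, against 13, 21 and 47 in normal gravity, a ratio of normal gravity over simulated microgravity of 76.0 (95% counting interval 13.3 to 3040, adjusted p = 0.00159).

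Below the filter were 11 keratins: KRT3, KRT20, KRT36, KRT38, KRT39, KRT73, KRT76, KRT77, KRT83, KRT84 and KRT85, with at most 14 counts over the simulated microgravity libraries and at most 3 over those of normal gravity. KRT20, a keratin of gut lining and Merkel cells, had 1, 0 and 11 counts in simulated microgravity and 0 in each normal gravity library. The Merkel cell list summed to 4.26 to 5.81 CPM in simulated microgravity and 0.958 to 1.65 CPM in normal gravity, mostly PIEZO2, with CHGA and SYP under 1 CPM in every library; its part in the keratin results was not tested.

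The make-up of the keratin transcripts differed between the groups. Keratins took 1.17%, 1.11% and 1.12% of all counts in the simulated microgravity libraries and 1.99%, 1.47% and 2.74% in those of normal gravity. The groups did not overlap, and the exact two-sided permutation test gave p = 0.1, the smallest that 3 against 3 libraries allow. It gave the same p for the type I share and for each class share below unless stated. Shares of single genes and shares per kilobase were not tested. For the keratin share of all counts the difference of means was -0.934 percentage points, and -0.595 without normal gravity replicate 3. Basal keratins made up 43.6% ± 2.81 of keratin counts in simulated microgravity and 82.6% ± 1.83 in normal gravity (SD, n = 3 each). Activation keratins made up 33.2% ± 3.34 in simulated microgravity and 8.54% ± 0.552 in normal gravity. Simple keratins made up 16.7% ± 0.601 in simulated microgravity and 8.45% ± 1.45 in normal gravity. Hair keratins reached 0.359% ± 0.0949 in simulated microgravity and 0.0224% ± 0.00327 in normal gravity, and suprabasal keratins 0.642% ± 0.105 and 0.197% ± 0.0270. Adjusted over the 7 classes the exact permutation p was 0.117 for each of these; the follicle sheath share overlapped between groups (p = 0.4).

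**Figure D3:**
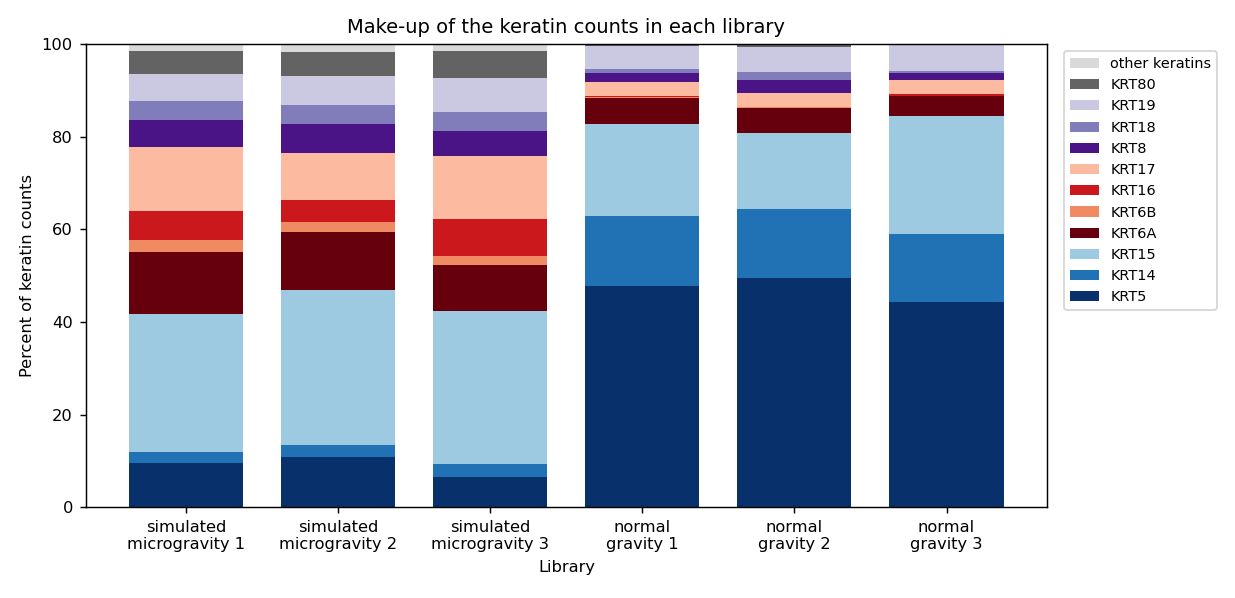
Percent of all keratin counts taken by 11 keratin genes and by the rest, for the 3 simulated microgravity libraries on the left and the 3 normal gravity libraries on the right. KRT5 takes 9.0% of keratin counts on average in simulated microgravity and 47.2% in normal gravity, while KRT15 is the largest part of every simulated microgravity library.

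KRT5 had the widest difference in share. It took 8.99% ± 2.24 of keratin counts in simulated microgravity and 47.2% ± 2.69 in normal gravity (SD, n = 3 each). KRT14 took 2.60% ± 0.112 in simulated microgravity and 14.9% ± 0.207 in normal gravity. The third basal gene differed in the other direction, with KRT15 at 32.0% ± 2.09 in simulated microgravity and 20.6% ± 4.59 in normal gravity and no overlap between the groups. A share of keratin counts also depends on the other keratins, and the level of KRT15 itself was not called (log2 FC -0.32). KRT17 took 12.5% ± 2.05 in simulated microgravity and 2.97% ± 0.0974 in normal gravity, and KRT80 took 5.28% ± 0.435 and 0.158% ± 0.133. The type I share of keratin counts was 63.2%, 62.2% and 69.9% in simulated microgravity and 44.5%, 41.6% and 49.8% in normal gravity. Counted per kilobase of transcript, type I made up 72.9% ± 3.85 in simulated microgravity and 53.2% ± 4.05 in normal gravity.

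Ratios of a type I gene to its type II partner within a library need no scaling between libraries. The 7 pairs compared were fixed by textbook partnership, and 5 had 10 counts or more of both genes in every library. The log2 ratio of KRT14 to KRT5 was -1.92, -2.10 and -1.26 in simulated microgravity and -1.66, -1.74 and -1.59 in normal gravity. It overlapped between groups (exact permutation p = 0.8), although both genes had fallen about 10 times; the normal gravity values lay inside the wider range of simulated microgravity. The ratio of KRT16 to KRT6A was -1.08, -1.41 and -0.325 in simulated microgravity and -5.02, -6.36 and -3.30 in normal gravity, a difference of 3.96, which was 3.23 without normal gravity replicate 2 and 4.76 without replicate 3. The ratio of KRT17 to KRT6B was 2.40, 2.21 and 2.81 in simulated microgravity and 3.89, 3.64 and 5.18 in normal gravity, a difference of -1.77. Since reads of the KRT6 copies may be split uncertainly, KRT17 was also set against the sum of KRT6A, KRT6B and KRT6C, chosen after seeing the data: the log2 ratio was then -0.236, -0.548 and 0.177 in simulated microgravity and -0.958, -1.004 and -0.552 in normal gravity, a difference of 0.64 with the opposite sign. Against the same sum the difference for KRT16 was 3.74.

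For the simple keratins, KRT18 to KRT8 had a log2 ratio of -0.499, -0.616 and -0.354 in simulated microgravity and -0.978, -0.627 and -1.75 in normal gravity, a difference of 0.63 with groups that nearly touched. KRT19 to KRT7 had 5.30, 4.80 and 5.19 in simulated microgravity and 8.46, 7.0 and 11.3 in normal gravity, a difference of -3.81, which was -2.63 without normal gravity replicate 3 and -4.76 without replicate 2. For these 4 pairs the groups did not overlap (exact two-sided permutation p = 0.1 each, 0.125 adjusted over the 5 pairs tested). The pairs KRT10 to KRT1 and KRT13 to KRT4 were too low for a test. KRT13 and KRT4 had 506 and 113, 911 and 153, and 399 and 94 counts in the 3 simulated microgravity libraries, and 35 and 12, 25 and 5, and 153 and 35 in those of normal gravity.

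**Figure D4:**
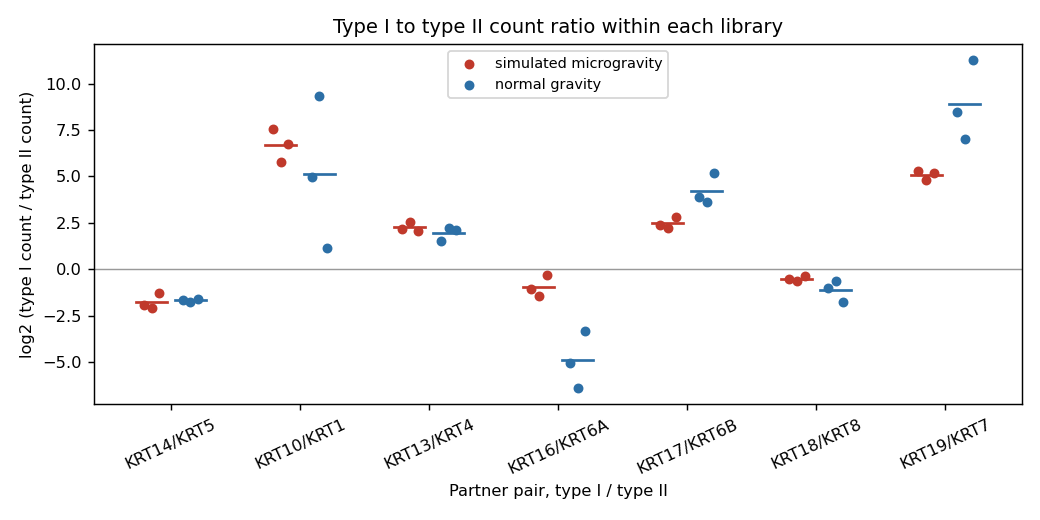
Log2 ratio of the count of a type I keratin to that of its type II partner in each library (0.5 added to each count), simulated microgravity left of normal gravity, bars at group means. The KRT14 to KRT5 ratio overlaps between groups, while KRT16 to KRT6A is higher in simulated microgravity by 3.96 on average and KRT19 to KRT7 differs by -3.81.

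Along the chromosomes called genes of opposite direction stood side by side on chromosome 17: there KRT14 fell while KRT16 and KRT17, the next keratin genes of the table, rose. On chromosome 12, KRT5 stood next to KRT6A, which was not called, and KRT6C and KRT6B behind it rose, while KRT74 on its other side fell. At the start of that cluster KRT80, KRT7, KRT86 and KRT81 were all called higher, and at its end KRT78, KRT8 and KRT18. KRT79, next to KRT78, was not called. Of all tested keratins 64.5% were called higher, and of all tested genes 28.2%. KRT86, KRT81 and KRT78 reached the filter in all libraries of simulated microgravity only. KRT86 overlaps KRT81 and KRT8 overlaps KRT18, so these runs only describe the order. KRT18 is the type I gene that lies in the type II cluster.

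**Figure D5:**
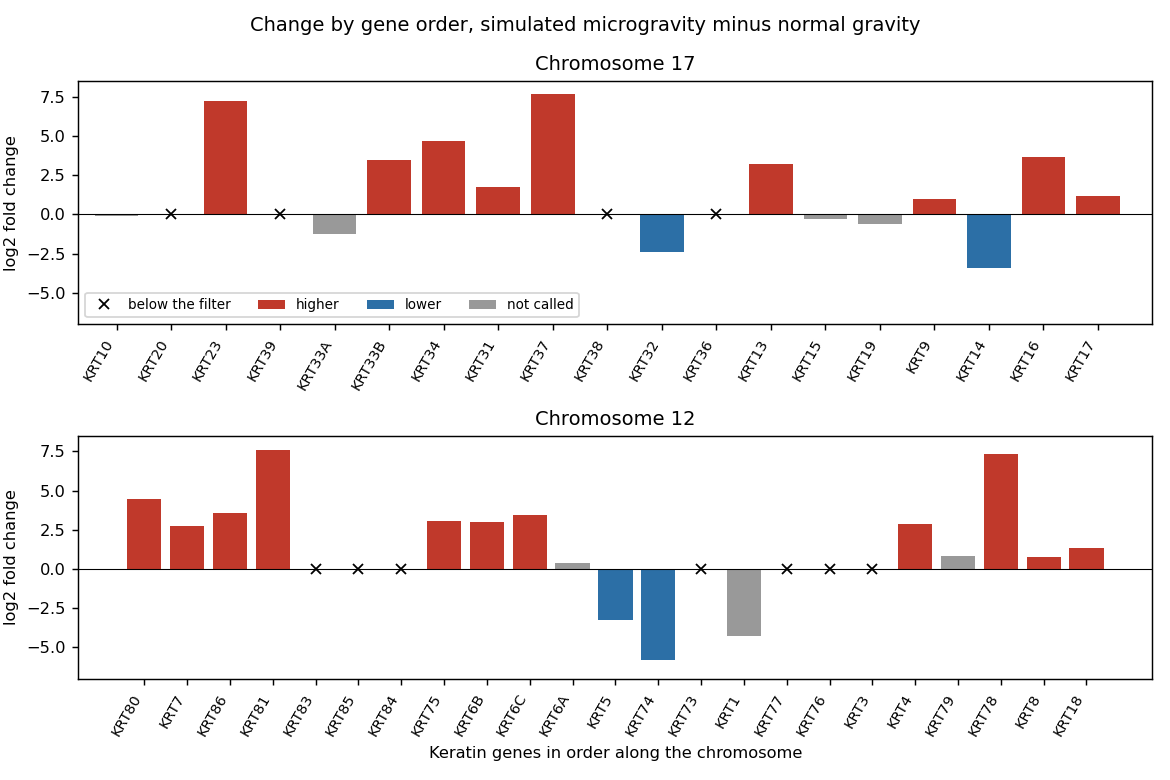
Fitted log2 fold change, simulated microgravity minus normal gravity, of keratin genes in their order along chromosome 17 and chromosome 12 (RefSeq GRCh38.p14), with crosses for genes below the low-count filter. KRT14 at -3.41 stands beside KRT16 at 3.66, and KRT5 at -3.26 stands near KRT6C at 3.45, with KRT6A at 0.36 between them; the bars of KRT37, KRT81 and KRT74 rest on 3 counts or fewer in a group.

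Genes that act on keratin filaments were followed as fixed lists. Of 18 tested partners and linkers 8 were called higher, 1 lower and 9 not called, with a median log2 FC of 0.32, beside 28.2% called higher and 29.3% lower over all genes. PPL, periplakin, which links keratin to the cell edge, had 683, 610 and 626 CPM in simulated microgravity, against 65.3, 63.3 and 86.8 CPM in normal gravity (log2 FC 3.16, SE 0.16). EVPL, its partner envoplakin, averaged 131.9 ± 12.3 CPM in simulated microgravity and 45.0 ± 7.13 CPM in normal gravity (log2 FC 1.55, SE 0.14). The gene that fell was DST, whose epithelial product holds keratin at hemidesmosomes, with 169, 178 and 134 CPM in simulated microgravity, against 453, 522 and 740 CPM in normal gravity (log2 FC -1.83, SE 0.20, adjusted p = 1.37e-04). The count of partners called higher was 4 without replicate 1 of normal gravity and 5 without replicate 3 of simulated microgravity.

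Of 8 other intermediate filament genes tested, 6 were called lower and 2 higher, with a median log2 FC of -1.54, where 29.3% of all genes were called lower and 28.2% higher. LMNB1, a lamin of the nuclear envelope, averaged 3.12 ± 0.327 CPM in simulated microgravity and 79.9 ± 39.4 CPM in normal gravity (log2 FC -4.68, SE 0.43). SYNM, synemin, averaged 1.59 ± 0.446 CPM in simulated microgravity and 7.03 ± 1.91 CPM in normal gravity. The genes called lower also held VIM, the filament of mesenchymal cells, with LMNB2, NES and SYNC. Those called higher were BFSP1, a lens filament gene, at 7.56 ± 1.03 CPM in simulated microgravity and 2.53 ± 0.202 CPM in normal gravity, and LMNA (log2 FC 0.32, SE 0.11, adjusted p = 0.0401, which was called in 7 of 13 alternatives at adjusted p-values of 0.00717 to 0.146).

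Of 30 tested transcription factors known to act on keratin or keratinocyte genes, 18 were called higher, 4 lower and 8 not called, with a median log2 FC of 0.80; over all genes 28.2% were called higher and 29.3% lower. TP63, which maintains basal keratinocytes and activates KRT5 and KRT14, fell to 77.5, 122 and 81.5 CPM in simulated microgravity, against 269, 298 and 403 CPM in normal gravity (log2 FC -1.79, SE 0.22, adjusted p = 2.67e-04). LEF1, a Wnt pathway factor of hair follicles, averaged 0.308 ± 0.121 CPM in simulated microgravity and 1.46 ± 0.332 CPM in normal gravity. OVOL1, a repressor active as keratinocytes leave the cell cycle, had 55.6, 52.1 and 53.9 CPM in simulated microgravity, against 2.88, 1.76 and 1.65 CPM in normal gravity (log2 FC 4.68, SE 0.22). GRHL1, a grainyhead factor of desmosomal genes, averaged 99.9 ± 5.40 CPM in simulated microgravity and 8.37 ± 2.09 CPM in normal gravity (log2 FC 3.58, SE 0.18). HOXC13, a factor that acts on hair keratin genes, had 122, 98.2 and 149 CPM in simulated microgravity, against 18.3, 14.4 and 18.0 CPM in normal gravity. GRHL2 (log2 FC -0.50, adjusted p = 0.011) and BNC1 (log2 FC -0.30, adjusted p = 0.0495) were the other factors called lower. The call of BNC1 was lost in 11 of 13 alternatives, over which its adjusted p was 0.0459 to 0.147. Whether any of these factors acts on the keratin genes here was not tested.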

How the data were processed

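The members, gene lists, pairs and tests were chosen with earlier results of these data known. Read counts per gene were deposited by the authors as whole numbers without normalization; fastp, HISAT, HTSeq, R 3.2.0, DESeq2 and hg38 are named, without roles, per the submitters' processing notes. Genes were filtered with filterByExpr (minimum count 10), scaled by TMM and tested with edgeR 4.0.16 (glmQLFit, robust; R 4.3.3), after a check on simulated data. SE was taken as log2 fold change over the square root of the F statistic. No replicates agreed within sampling noise (chi-square per degree of freedom 19.4 to 156). Shares and ratios were compared with exact permutation tests (20 splits). Ratios with 3 counts or fewer in a group have exact Clopper-Pearson 95% intervals, which cover counting error only. Transcript lengths and 150-base windows come from GENCODE 29 transcripts linked to RefSeq, with lengths limited to the RefSeq span of the gene, and coordinates are RefSeq GRCh38.p14. Of 55 keratin symbols listed 13 were not analysed here (KRT2, KRT12, KRT24 to KRT28, KRT35, KRT40, KRT71, KRT72, KRT82 and KRT222). Keratins at 5 CPM or more on average in either group were given in every library, and the 2 genes with the lowest adjusted p per direction of every other list, with lower keratins as counts or CPM; VIM, LMNB2, NES, SYNC, HOXC13, GRHL2 and BNC1 were added after their values were seen. Alternatives were other scalings (size factors of DESeq2, or none), no filter or a CPM filter, protein-coding rows only, the Wald test of DESeq2 1.42.0, a replicate block, leaving out each library and, chosen after seeing the data, summing near copies.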

Additional observations from a re-analysis of the deposited data

Results flagged for a closer look

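Keratin-associated protein genes, which make the matrix between hair keratin filaments, lie outside the keratin rule and were not part of the comparisons above. Their 14 rows together had 1.41, 1.53 and 2.09 CPM in simulated microgravity, against 0.235, 0.346 and 0.345 CPM in normal gravity, so each simulated microgravity library was above each of normal gravity. The 1 row that passed the low-count filter, KRTAP4-1, had 26, 42 and 57 counts in simulated microgravity and 3, 13 and 12 in normal gravity (log2 fold change 2.22, SE 0.60, adjusted p = 0.0119 in edgeR's quasi-likelihood test).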

How the results depend on the processing

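Over the alternatives 17 to 22 keratins were called higher and 3 to 6 lower. Of 402 values of single keratins under alternatives, 377 kept their direction and their side of the threshold, 12 lost a call, 11 gained one and 2 turned their direction: KRT10 (0.062; -0.21 to 0.062 with 1 library left out) and KRT15 (0.20; -0.62 to 0.20) without normal gravity replicate 3, neither called. KRT1 was called by DESeq2 (adjusted p = 0.0336). Per kilobase of transcript, the difference in the basal share of keratin counts was -36.5 percentage points against -39.0, and that of KRT23, KRT79 and KRT80 together 2.57 against 5.31. Filament partners called lower were 2 with no filter and 3 with DESeq2, and 1 to 2 with a library left out; those called higher were 4 to 9. Other intermediate filaments called higher were 1 with no filter and 1 with the block, and 1 to 2 with a library left out. Regulators called lower were 2 to 4 with a library left out and 3 under each other alternative, against 4. Of the 4 regulators called lower, BNC1 was called in 2 of 13 alternatives and GRHL2 in 12, while TP63 and LEF1 were called in all 13. Why the counts of the other lists moved was not tested. Same-numbered libraries did not deviate together (correlations -0.0437 to 0.0494), and the titles do not say whether the numbers pair cultures. With the replicate block 19 keratins were called higher and 5 lower, against 20 and 4 without it. There KRT31 lost its call (adjusted p = 0.0658) and KRT16 changed by 4.32. With a library left out, the fitted log2 values of KRT37, KRT81 and KRT74 ran over 7.14 to 8.49, 7.14 to 9.44 and -7.73 to -5.13. The KRT17 to KRT6B ratio turned to 0.64 with the KRT6 copies summed. KRT1 rests on normal gravity replicate 3. Low counts limit KRT4, KRT23, KRT33A, KRT37, KRT74, KRT75, KRT78, KRT79, KRT81 and KRT86, where 1 library can move a fold by more than 1.5 times. With 1 library left out, the folds of KRT7, KRT13 and KRT16 also moved by more than 1.5 times.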
